A study of Mus musculus with 64 samples.

Results

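The genes described here are 8 Kruppel-like factors, Klf2, Klf3, Klf4, Klf5, Klf6, Klf9, Klf10 and Klf13, taken by symbol from a list made with earlier results of these data known. They were found by symbol among the 23990 gene symbols that both cohorts of the series share, and all 8 were present in every library. The series measured messenger RNA by sequencing in 64 libraries of colonic mucosa from C57BL/6 mice, an inbred strain. A pinch biopsy removes a small piece of mucosa with forceps. Biopsy libraries held the wound bed, a mixture of epithelium, stroma and blood cells, and sham libraries held normal colon after a mock procedure.

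The time course sampled 6 biopsies with 4 shams at 1 h, 5 with 5 at 6 h, 6 with 5 at 3 d and 5 with 5 at 6 d. Another cohort was taken at 6 h and held an arm with abx in its titles (5 biopsies and 6 shams) and an arm with veh in its titles (6 and 6). This cohort was made to compare mice drinking broad-spectrum antibiotics with mice that did not. Its labels contradict each other, because the abx titles carry a control condition and the veh titles carry antibiotic treatment. The arms are therefore named by title, and no direction is given for antibiotics. The labels used here state neither age, nor a genotype beyond the strain, nor whether animals were pooled. The labels do not say that libraries came from separate animals, so each p-value reflects the scatter of these samples alone, and that scatter may be technical.

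Kruppel-like factors are zinc finger transcription factors that share a DNA-binding end and bind GC-rich and CACCC sequences. The rest of each protein differs between members and recruits coactivators, or corepressors such as CtBP and Sin3. In mouse gut epithelium Klf4 is known from differentiated surface cells and is needed for goblet cell maturation in the colon, whereas Klf5 is known from dividing crypt cells. Klf6 and Klf10 are known as genes induced early by serum, injury or TGF-beta. Klf2 marks quiescent endothelium and resting lymphocytes, Klf9 is induced by glucocorticoids and follows the clock in several tissues, Klf13 is known as an activator of Ccl5 in T cells, and Klf3 is a repressor that binds CtBP.

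The genes lie apart in the genome, on 8 chromosomes in the GENCODE vM21 annotation of GRCm38. Klf6 spans chr13:5861482-5870394 and Klf9 spans chr19:23141226-23168134, both on the plus strand. Klf4 spans chr4:55527143-55532466 on the minus strand and Klf2 spans chr8:72319033-72321656 on the plus strand. RefSeq promoter sequence on GRCm38.p6 was matched for 6 of the 8 genes. Klf5 and Klf10 were not among them. The 250 bases before the RefSeq start are printed 5′ to 3′ on the gene's strand for 4 members, because Klf6 and Klf2 rose after biopsy while Klf4 and Klf9 fell. They lie at chr13:5861239-5861488 (Klf6), chr8:72318812-72319061 (Klf2), chr4:55532476-55532725 (Klf4) and chr19:23140976-23141225 (Klf9). Capitals mark matches on either strand to an E-box (CACGTG), a cyclic AMP response element half-site (TGACG), an AP-1 site (TGANTCA) or a MEF2 site.
Klf6 promoter: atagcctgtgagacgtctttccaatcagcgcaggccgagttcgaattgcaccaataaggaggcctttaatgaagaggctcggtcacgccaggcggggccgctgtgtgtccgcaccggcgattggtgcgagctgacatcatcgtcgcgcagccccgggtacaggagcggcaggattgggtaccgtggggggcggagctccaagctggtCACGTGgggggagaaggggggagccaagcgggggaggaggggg
Klf2 promoter: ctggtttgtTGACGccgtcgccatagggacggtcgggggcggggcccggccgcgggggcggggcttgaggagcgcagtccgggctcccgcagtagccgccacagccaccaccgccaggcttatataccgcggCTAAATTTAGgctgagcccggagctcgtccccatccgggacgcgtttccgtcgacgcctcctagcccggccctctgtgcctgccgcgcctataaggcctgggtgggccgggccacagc
Klf4 promoter: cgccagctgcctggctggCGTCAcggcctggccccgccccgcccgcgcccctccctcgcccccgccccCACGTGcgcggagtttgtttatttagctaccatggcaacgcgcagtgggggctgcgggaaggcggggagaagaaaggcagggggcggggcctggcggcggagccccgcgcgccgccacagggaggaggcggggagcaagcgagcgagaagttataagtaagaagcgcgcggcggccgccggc
Klf9 promoter: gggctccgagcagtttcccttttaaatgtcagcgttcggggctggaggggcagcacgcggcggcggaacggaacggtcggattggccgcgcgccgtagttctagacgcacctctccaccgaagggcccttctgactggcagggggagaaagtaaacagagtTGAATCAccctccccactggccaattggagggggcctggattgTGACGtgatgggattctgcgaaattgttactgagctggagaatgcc

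The Klf6 and Klf4 windows held an E-box, which 6.02% of the 32851 windows of this length held. An AP-1 site was found in the Klf9 window, against 6.75% of all windows, and a MEF2 site in the Klf2 window, against 2.92%. The half-site TGACG was present in the Klf2, Klf4, Klf9 and Klf13 windows and in 17.8% of all windows. GC boxes (GGGCGG), the kind of sequence that the family itself binds, numbered 6 for Klf3, 4 for Klf4, 3 for Klf13, 2 for Klf2, 1 for Klf6 and 0 for Klf9, and 32.7% of all windows held at least 1. A CACCC box was found for Klf2, Klf3, Klf9 and Klf13, against 52% of all windows. In the Klf9 window its first letters overlapped the AP-1 match, and the E-box, AP-1 and MEF2 matches fit their motifs on both strands and were taken as 1 site each. The first pair of GC boxes in the Klf4 window shared a base, and every full cyclic AMP response element would also hold the half-site. None of the 6 windows held a full cyclic AMP response element (TGACGTCA, 1.55% of all windows) or a CArG box (1.47%). These matches describe letters in the window and not binding.

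Levels are given in FPKM, fragments per kilobase of transcript scaled to the library's size, so they can be compared between genes per unit length. Libraries of the time course summed to between 414318 and 522098 FPKM, those of the arms to between 229752 and 266646 FPKM, and the cohorts were tested apart. The files used here hold no read counts. Absolute depth is therefore unknown, and relative depth estimated from the smallest values spanned 1 to 1.52 in the time course. There the 6 d shams lay at 1 to 1.169 and the 6 d biopsies at 1.253 to 1.516, so comparisons at 6 d carry this difference. In the arms relative depth spanned 1 to 1.569. The part of depth in the values was not tested. Changes are differences of log2(FPKM + 1) with their standard error (SE), a scale that understates changes of low genes. A change was called at an adjusted p under 0.05 in limma, adjusted over all 13285 genes tested in the time course or 11849 in the arms. All 8 members reached 1 FPKM in 4 or more libraries, the filter on low values, in both cohorts. Some libraries stood apart by B cell genes: 7 of the time course and 4 of the arms had a summed level over 3 times their cohort's median, and results that change without them are named beside the gene. In bulk tissue, fewer cells of a type and less RNA per cell cannot be told apart.

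In sham colon Klf4 was the most abundant member, at 245 ± 32.9 FPKM (SD, n = 19 shams of the time course), and ranked 260 of 23997 symbols by mean level. Klf5 followed at 102 ± 16.8 FPKM, Klf6 at 53.5 ± 11.5 FPKM and Klf3 at 40.0 ± 14.6 FPKM. The order Klf4, Klf5, Klf6, Klf3 held in every one of the 19 shams. Lower levels were measured for Klf10 (19.2 ± 5.65 FPKM), Klf9 (19.2 ± 4.72 FPKM), Klf13 (15 ± 2.24 FPKM) and Klf2 (5.42 ± 1.29 FPKM). Klf10 and Klf9 were not separated, since Klf10 was the higher of the pair in 7 of 19 shams, whereas Klf13 exceeded Klf2 in all 19. In the 12 shams of the arms Klf4 was again highest at 136 ± 15.8 FPKM and Klf2 lowest at 2.30 ± 0.816 FPKM. There Klf10, at 6.47 ± 1.74 FPKM, ranked below Klf9 (11 ± 2.72 FPKM) and Klf13 (8.08 ± 0.665 FPKM).

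The 9 other Kruppel-like factors were lower than 7 of the members in the shams of the time course. Klf16 was the highest of them at 6.60 ± 1.13 FPKM (SD, n = 19), above Klf2, and Klf12, Klf1, Klf8, Klf17 and Klf14 fell below the filter. The members thus held most of the family's messenger RNA, and biopsy changed the mixture. In 1 h shams Klf4 made up 54.3% ± 3.55 (SD, n = 4) of the summed FPKM of the 17 family genes and Klf6 made up 9.03% ± 1.14. In 1 h biopsies Klf4 made up 40.3% ± 3.03 (SD, n = 6) and Klf6 27.3% ± 2.11, and the ranges of the groups did not overlap for either gene. The family sum was 439 ± 28.7 FPKM in these shams and 575 ± 43.7 FPKM in these biopsies. Klf4 itself averaged 238 FPKM in the shams and 232 FPKM in the biopsies, a change that was not called. At 6 d Klf4 stood at 37.2% ± 2.25 in biopsies and 48.6% ± 2.48 in shams (SD, n = 5 each), and Klf5 at 25.2% ± 1.98 and 19.4% ± 1.74.

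**Figure D1:**
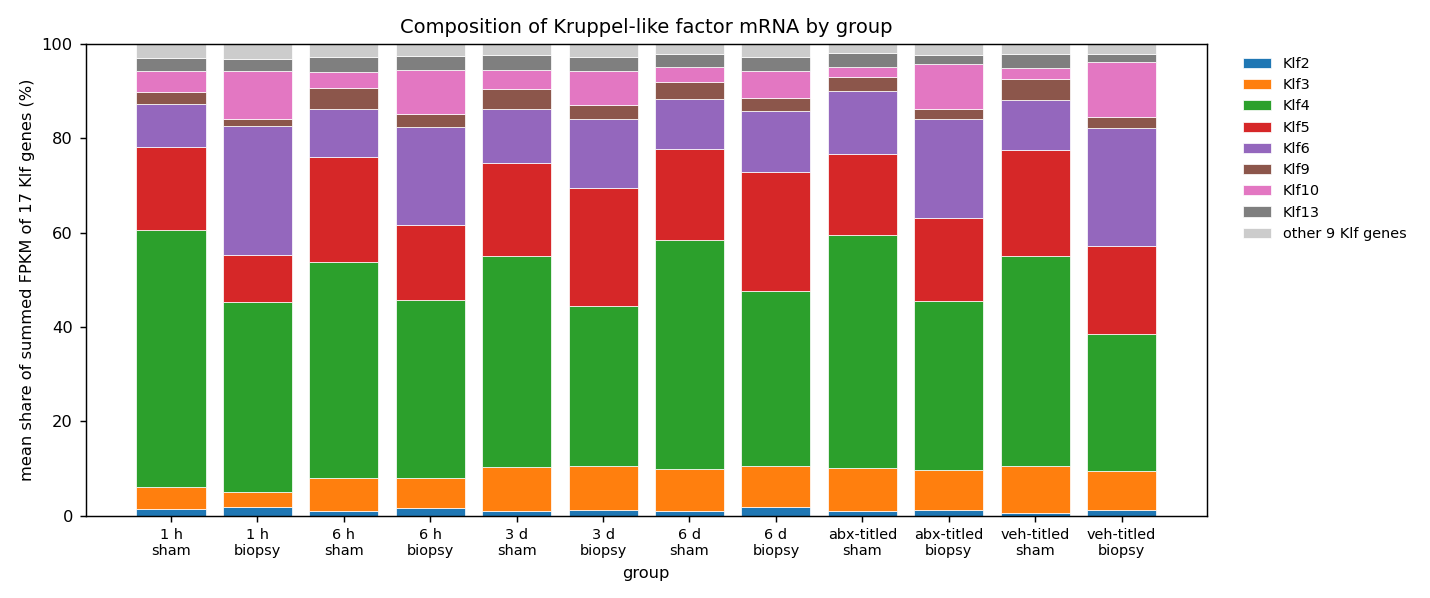
Mean share (%) that each of the 8 members and the other 9 Kruppel-like factors together held of the summed FPKM of 17 family genes, in each of the 12 groups of libraries (stacked bars, no error shown). Klf4 was the largest share in each group, and Klf6 widened from 9.03% in 1 h shams to 27.3% in 1 h biopsies.

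The main question of the time course was how wound tissue differed from sham at each time. At 1 h Klf6, Klf10 and Klf2 rose and Klf5 and Klf9 fell. The 3 rises stood against 9.38% of all tested genes called higher, and the 2 falls against 45% called lower. At 6 h Klf6, Klf10 and Klf2 were again called higher (3 of 8, against 24.3% of all genes) and Klf4, Klf5 and Klf9 lower (3 of 8, against 43.2%). At 3 d Klf6 and Klf10 were higher (2 of 8, against 32.1%), and Klf4 and Klf9 lower (2 of 8, against 10.5%). At 6 d Klf2 and Klf10 were higher (2 of 8, against 34.1%), with Klf4 and Klf9 again lower (2 of 8, against 10.2%). Klf3 and Klf13 were called in no comparison of biopsy with sham in the time course.

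The balance of rises and falls over all genes depended on scaling. The median change of all tested genes was -0.18 at 1 h, -0.12 at 6 h, 0.09 at 3 d and 0.11 at 6 d. Median of ratios scaling centres a typical gene's change near 0, so medians near 0 and a nearly even split follow from the method. With it the share of called genes that were higher moved from 17.26% to 50.37% at 1 h and from 36.01% to 50.77% at 6 h. At 3 d the share moved from 75.34% to 50.83% and at 6 d from 77% to 50.49%. After rescaling without small RNA symbols the shares were 14.51%, 28.6%, 62.83% and 76.5% from 1 h to 6 d. Quantile normalization gave 37.83%, 39.44%, 43.61% and 47.01%. Member calls that median of ratios scaling removed are named beside each gene.

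**Figure D2:**
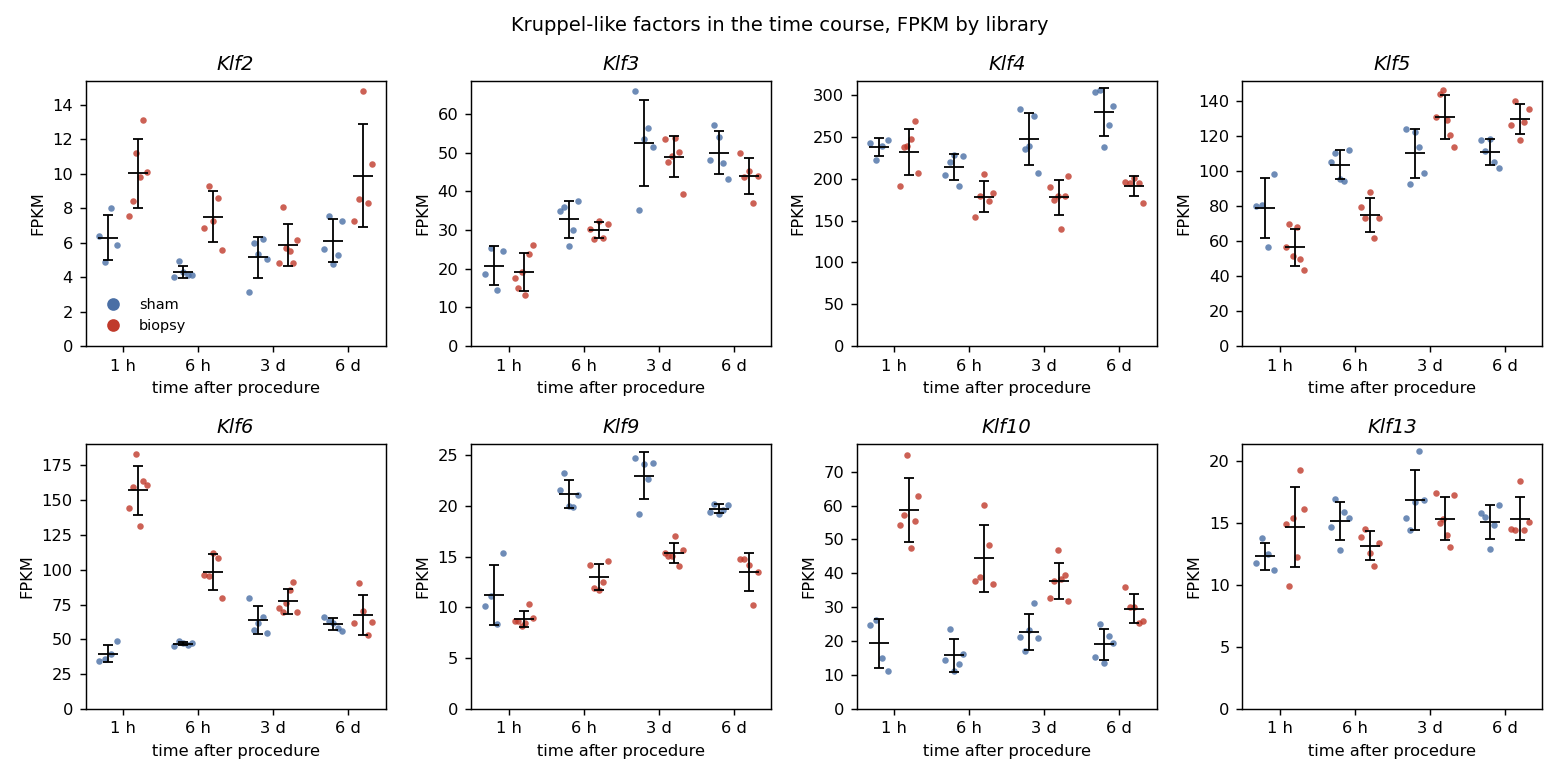
FPKM of each member in each library of the time course, by time after the procedure (blue dots, shams; red dots, biopsies; black marks, mean with SD; linear axes from 0). Klf6 biopsies at 1 h lie between 132 and 183 FPKM, above all 1 h shams, while Klf4 and Klf9 biopsies lie below the shams at 3 d and 6 d.

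Klf6, a zinc finger activator induced in injured tissue, showed the largest change of any member in the time course. At 1 h its 6 biopsies spanned 132 to 183 FPKM with a median of 160 FPKM, and the 4 shams measured 34.7, 36.0, 39.3 and 48.7 FPKM. No sham came near a biopsy. The means were 157 ± 17.6 (SD, n = 6) and 39.7 ± 6.33 FPKM (SD, n = 4), a ratio of 3.96. On the log2 scale Klf6 rose by 1.96 ± 0.11 (SE, adjusted p = 3.89e-16).

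By 6 h the wound level of Klf6 had come down. The 5 biopsies measured 79.6, 95.2, 96.3, 108 and 112 FPKM and the 5 shams 45.3 to 48.8 FPKM, with no overlap and a change of 1.04 ± 0.11 (SE, adjusted p = 4.88e-10). This rise was smaller than at 1 h by 0.92 on the log2 scale (difference -0.92 ± 0.16 SE, adjusted p = 1.4e-05). At 3 d the biopsies (69.7 to 90.9 FPKM, median 74.2) overlapped the shams (54.3, 56.5, 61.9, 65.8 and 79.9 FPKM). That change of 0.28 (adjusted p = 0.0318) was not called after median of ratios scaling (adjusted p = 0.283) or quantile normalization (0.178), nor without 3 d biopsy 4 (0.072), biopsy 5 (0.0814), sham 2 (0.0866), sham 3 (0.0547) or sham 5 (0.101). From 6 h to 3 d the effect fell by a further 0.76 (adjusted p = 0.000122). At 6 d the change was 0.13 (adjusted p = 0.372), with biopsies at 53.1, 61.6, 62.4, 70.2 and 90.5 FPKM around the shams at 55.8 to 66.1 FPKM.

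Klf10, a TGF-beta-inducible repressor, rose at all 4 times, and no biopsy overlapped a sham at any of them. At 1 h the biopsies spanned 47.5 to 75.1 FPKM (median 56.4, n = 6) and the shams measured 11.3, 15.1, 24.9 and 26.2 FPKM, a log2 change of 1.61 ± 0.20 (SE, adjusted p = 1.22e-08). At 6 h the biopsies measured 36.9, 37.7, 39.0, 48.5 and 60.2 FPKM and the shams 11.2, 13.3, 14.3, 16.3 and 23.6 FPKM, a change of 1.46 ± 0.19 (SE, adjusted p = 3.62e-08). Shams of Klf10 spread over more than their own lowest value, so the change is less precise than for Klf6.

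At 3 d Klf10 biopsies spanned 31.8 to 46.8 FPKM (median 37.9, n = 6), just above the shams at 17, 20.9, 21.1, 23.4 and 31.3 FPKM, for a change of 0.72 ± 0.18 (SE, adjusted p = 0.0018). At 6 d the biopsies measured 25.5, 26.0, 29.9, 30.1 and 36.1 FPKM and the shams 13.6, 15.4, 19.6, 21.5 and 25.2 FPKM, a change of 0.63 ± 0.19 (SE, adjusted p = 0.00817). The effect did not differ detectably between 1 h and 6 h (difference -0.16, 95% interval -0.71 to 0.40). It was smaller at 3 d than at 6 h by 0.73 (adjusted p = 0.0203), a call lost without 3 d sham 4 (adjusted p = 0.0512) or 6 h biopsy 4 (0.0522). Klf10 thus stayed raised at 3 d and 6 d, the times when Klf6 lay at 0.28 and 0.13.

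Markers of several cell types also changed at these times. All 6 neutrophil markers were higher at 6 h, with a summed level of 340.1 to 834.3 FPKM in biopsies and 0.1435 to 1.597 FPKM in shams. At 1 h, when Klf6 was highest, 4 of 6 were higher and the sums were 15.22 to 100.6 FPKM against 0.2325 to 1.684 FPKM. All 6 red blood cell markers were higher at 1 h, summing to 834.8 to 6072 FPKM in biopsies and 32.72 to 141 FPKM in shams. Of 6 markers of squamous epithelium 3 could be tested and all 3 were higher at 1 h, with sums of 20.46 to 38.68 against 1.765 to 4.49 FPKM. Retnlg, a neutrophil marker, was at 0 in all 6 h shams, and no other marker of these lists was at 0 throughout a 1 h or 6 h group. General epithelial markers had a median sum of 11330 FPKM in 1 h biopsies and 6959 FPKM in 1 h shams. Macrophage sums were lower in 1 h biopsies, at 90.12 to 133.4 FPKM against 182.7 to 220.5 FPKM. The part of any of these cells in the rises of Klf6 and Klf10 was not tested.

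Klf2, a factor of quiescent endothelium and lymphocytes, rose at 1 h, 6 h and 6 d. At 1 h biopsies spanned 7.54 to 13.1 FPKM (median 9.96, n = 6) and shams measured 4.86, 5.88, 6.39 and 8.01 FPKM, so the groups overlapped, with a change of 0.60 ± 0.17 (SE, adjusted p = 0.00264). At 6 h the biopsies at 5.58, 6.88, 7.26, 8.60 and 9.29 FPKM lay above all shams at 4.04, 4.12, 4.14, 4.30 and 4.92 FPKM, a change of 0.67 ± 0.16 (SE, adjusted p = 0.00046). At 3 d the change was 0.17 (95% interval -0.15 to 0.48, adjusted p = 0.407).

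At 6 d Klf2 biopsies measured 7.25, 8.31, 8.52, 10.6 and 14.8 FPKM and shams 4.77, 5.28, 5.66, 7.29 and 7.58 FPKM, a change of 0.59 ± 0.16 (SE, adjusted p = 0.00341). The highest biopsy, replicate 3, was also the library with the highest sum of B cell markers, 346.5 FPKM against 2.219 in the lowest 6 d biopsy. Without the libraries rich in B cell genes the change was 0.45 (adjusted p = 0.0463). Endothelial markers were higher at 6 d in 6 of 6, summing to 56.61 to 69.6 FPKM in biopsies and 25.08 to 35.6 FPKM in shams. At 3 d, when Klf2 was not called, all 6 were also higher, and at 1 h, when Klf2 rose, 2 of 6 were lower, with sums of 20.74 to 28.21 FPKM in biopsies and 29.98 to 37.26 FPKM in shams. The part of endothelium in the Klf2 values was not tested.

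Klf4, the factor of differentiated surface cells, fell later than the others rose. At 1 h its 6 biopsies spanned 191 to 269 FPKM around the shams at 222, 239, 243 and 246 FPKM, a change of -0.04 (95% interval -0.24 to 0.15). At 6 h the biopsies measured 154, 173, 179, 183 and 205 FPKM and the shams 192, 205, 220, 227 and 228 FPKM. That change of -0.26 ± 0.09 (SE, adjusted p = 0.0124) was not called after median of ratios scaling (adjusted p = 0.333) or without 6 h biopsy 1 (0.0529).

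At 3 d Klf4 biopsies spanned 140 to 203 FPKM (median 179, n = 6) and the shams measured 207, 235, 239, 275 and 283 FPKM, without overlap and with a change of -0.48 ± 0.09 (SE, adjusted p = 4.79e-05). The 6 d biopsies measured 171, 195, 195, 196 and 201 FPKM and the shams 237, 264, 287, 303 and 305 FPKM, again apart, with a change of -0.54 ± 0.09 (SE, adjusted p = 1.7e-05). Surface colonocyte markers fell at the same times, 4 of 6 at 3 d and 5 of 6 at 6 d with 1 higher. Their sums were 2063 to 2837 FPKM in 3 d biopsies against 3598 to 7808 FPKM in shams, and 1464 to 2121 FPKM against 3797 to 4407 FPKM at 6 d. At 6 h the same sums were 6565 to 7263 FPKM in biopsies and 4606 to 5485 FPKM in shams, higher in biopsies, while Klf4 was lower. Goblet cell sums overlapped between biopsies and shams at each of these times. Their medians were 8663 FPKM in 3 d biopsies and 7301 FPKM in shams, and 8510 and 6386 FPKM at 6 d. At 6 h they were 6042 FPKM in biopsies and 8547 FPKM in shams. The part of surface or goblet cells in the Klf4 values was not tested.

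Klf5, the factor of dividing crypt cells, fell in the first hours. At 1 h biopsies spanned 43.4 to 69.8 FPKM (median 54.0, n = 6) and shams measured 56.7, 79.9, 80.5 and 98.3 FPKM, with sham 4 inside the biopsy range. The change of -0.47 ± 0.12 (SE, adjusted p = 0.00111) lay 0.29 below the median of all genes and was not called after median of ratios scaling (adjusted p = 0.103). At 6 h biopsies at 61.6, 73.0, 73.4, 79.3 and 88.1 FPKM lay below all shams at 94.2, 95.5, 105, 111 and 112 FPKM, a change of -0.46 ± 0.12 (SE, adjusted p = 0.000629).

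By 3 d Klf5 biopsies no longer lay below the shams. They spanned 114 to 146 FPKM (median 130, n = 6) and shams measured 92.3, 98.9, 114, 122 and 124 FPKM, a change of 0.25 ± 0.11 (SE, adjusted p = 0.0661) that did not pass. It passed without 3 d biopsy 6 (adjusted p = 0.0433), sham 1 (0.048) or sham 3 (0.0475) and with array weights (0.0063). The effect at 3 d was higher than at 6 h by 0.71 ± 0.16 (SE, adjusted p = 0.000364). At 6 d the change was 0.22 (adjusted p = 0.117), and it passed with array weights (0.0199). Crypt base and stem cell markers gave 4 of 6 lower and 1 higher at 6 h (median -1.03) and 3 of 6 higher at 3 d (median 0.34). Their sums at 6 h overlapped, at 47.48 to 60.49 FPKM in biopsies and 55.52 to 65.15 FPKM in shams. The 3 d sums overlapped too, at 65.69 to 84.56 FPKM in biopsies and 26.64 to 73.26 FPKM in shams. General epithelial markers were higher in 6 of 6 at 6 h (median 0.74), when Klf5 was lower. Whether these cells took part in the Klf5 values was not tested.

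Klf9, a glucocorticoid-inducible repressor, was lower in biopsies at every time. At 1 h biopsies spanned 8.13 to 10.4 FPKM (median 8.63, n = 6) and shams measured 8.38, 10.1, 11.1 and 15.4 FPKM. The change of -0.28 ± 0.10 (SE, adjusted p = 0.0141) rested on the highest sham, since without 1 h sham 5 it was -0.14 (adjusted p = 0.219), and it was not called after median of ratios scaling (0.566) or quantile normalization (0.458). At 6 h biopsies at 11.8, 11.9, 12.5, 14.2 and 14.6 FPKM lay below shams at 19.9, 20.0, 21.1, 21.6 and 23.3 FPKM, a change of -0.67 ± 0.10 (SE, adjusted p = 2.11e-07).

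The fall of Klf9 was of like size at the later times. At 3 d biopsies spanned 14 to 17 FPKM (median 15.2, n = 6) against shams at 19.2, 22.6, 24.2, 24.3 and 24.8 FPKM (change -0.55 ± 0.09 SE, adjusted p = 1.22e-05). At 6 d biopsies measured 10.2, 13.5, 14.2, 14.8 and 14.8 FPKM and shams 19.2, 19.5, 19.6, 20.1 and 20.2 FPKM (change -0.53 ± 0.10 SE, adjusted p = 4.22e-05). Biopsies and shams did not overlap at 6 h, 3 d or 6 d. The effect was larger at 6 h than at 1 h by -0.38 (adjusted p = 0.0217), a call lost without 1 h sham 1 (adjusted p = 0.0525), without sham 4 (0.0974) and without the libraries rich in B cell genes (0.0958), while 3 d and 6 h differed by 0.12 (95% interval -0.15 to 0.39).

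Klf13 and Klf3, both repressors in many settings, were not called at any time. Klf13 biopsies spanned 9.90 to 19.3 FPKM at 1 h against shams at 11.2 to 13.7 FPKM, a change of 0.21 (95% interval -0.02 to 0.44, adjusted p = 0.113). It passed after median of ratios scaling (change 0.43, adjusted p = 0.00295) and quantile normalization (0.36, adjusted p = 0.00699), and without 1 h biopsy 2 (adjusted p = 0.0112). Without the libraries rich in B cell genes, 1 h biopsy 5 among them, the 1 h change was 0.07 (adjusted p = 0.662). At 6 h, 3 d and 6 d the Klf13 changes were -0.19, -0.12 and 0.02. The 6 h fall passed after rescaling without small RNA symbols (adjusted p = 0.0331) and the 3 d fall after quantile normalization (0.04). Its effect at 6 h was lower than at 1 h by 0.40 (difference -0.40, adjusted p = 0.0373), a call lost on leaving out 1 h biopsy 1, 3, 5 or 6, 1 h sham 1 or 5, 6 h biopsy 4 or 5, or 6 h sham 2, 4 or 5 (adjusted p 0.0513 to 0.0804), and without the libraries rich in B cell genes (0.254). Klf3 changes were -0.11, -0.12, -0.08 and -0.18 from 1 h to 6 d, with 95% intervals of -0.42 to 0.20, -0.42 to 0.19, -0.37 to 0.21 and -0.48 to 0.12.

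**Figure D3:**
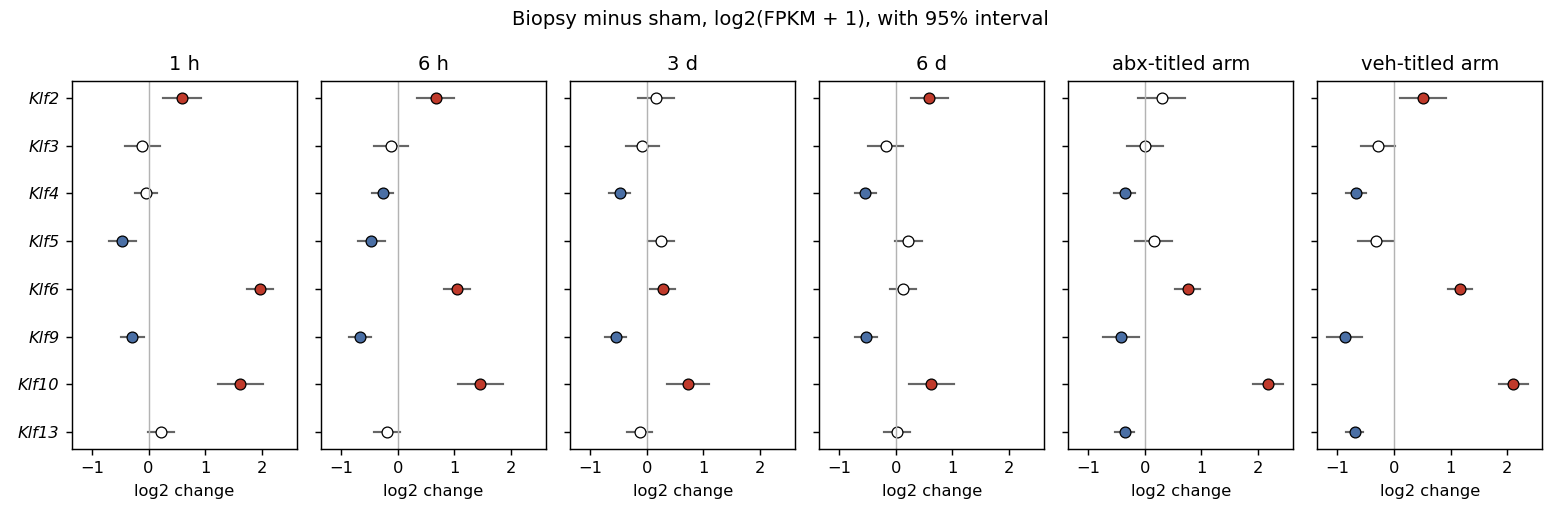
Difference of log2(FPKM + 1), biopsy minus sham, for each member in the 4 times and the 2 arms (points), with the 95% interval from limma (lines). Filled points passed an adjusted p under 0.05 (red higher, blue lower). Klf6 is at 1.96 at 1 h and 0.13 at 6 d, and Klf10 is filled and to the right in all 6 panels.

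Differences of the biopsy effect between neighbouring times were called for 3 of 8 members from 1 h to 6 h (Klf6, Klf9 and Klf13, against 46.9% of all genes) and for 3 of 8 from 6 h to 3 d (Klf5, Klf6 and Klf10, against 52.2%). Klf2, at -0.50 from 6 h to 3 d (adjusted p = 0.0579), passed without 3 d biopsy 2 (0.0261), 3 d sham 1 (0.014) or 6 h biopsy 6 (0.0269), and without the libraries rich in B cell genes (0.0483). From 3 d to 6 d limma called 0 of 8 members, and 0 had an unadjusted p under 0.05, against 1.84% of all genes called.

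Shams themselves differed with time for most members, as they did for most genes tested. The test over the 4 sham groups called 6 of 8 (all but Klf2 and Klf10), against 59% of all genes. The Klf13 call (adjusted p = 0.0213) was lost without 1 h sham 1 (0.0635), 1 h sham 5 (0.081) or 3 d sham 4 (0.0519). Klf2 (0.0639) passed without 1 h sham 2 (0.0382), 3 d sham 1 (0.0457) or 6 d sham 3 (0.0428), and Klf10 (0.117) without 6 h sham 2 (0.0275). Klf3 had the widest range. Its shams measured 14.6, 18.6, 24.5 and 25.4 FPKM at 1 h and 25.9, 30, 34.9, 35.9 and 37.6 FPKM at 6 h. They reached 35.3, 51.4, 53.6, 56.5 and 65.9 FPKM at 3 d and 43.2 to 57.2 FPKM at 6 d. The largest difference between sham means was 1.30 on the log2 scale (adjusted p = 2.55e-08), and biopsies followed the same course, from 19.2 ± 4.94 FPKM at 1 h to 48.9 ± 5.31 FPKM at 3 d (SD, n = 6 each).

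Klf9 shams rose from 11.2 ± 2.97 FPKM (SD, n = 4) at 1 h to 21.2 ± 1.39 FPKM (SD, n = 5) at 6 h without overlap, a change of 0.88 ± 0.10 (SE, adjusted p = 8.29e-07). In that comparison of shams 3 of 8 members were called (Klf3, Klf5 and Klf9, all higher at 6 h), against 28.1% of all genes, and the Klf5 call (0.41, adjusted p = 0.0113) was lost without 1 h sham 4 (0.112). Klf2, at -0.44 (adjusted p = 0.0501), passed without 1 h sham 2 (0.0298). Klf6, at 0.25 (adjusted p = 0.115), passed without 1 h sham 5 (0.0311), and Klf13, at 0.28 (adjusted p = 0.0741), passed without 6 h sham 3 (0.0438).

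Relative to the mean of the 1 h and 6 h shams, the 3 d shams were higher for 5 of 8 members, against 44.3% of all genes called. These were Klf3 (0.97), Klf9 (0.55), Klf6 (0.54, adjusted p = 3.17e-05), Klf5 (0.29) and Klf13 (0.28). The Klf5 call (adjusted p = 0.0207) was lost without 1 h sham 4 (0.0674), 3 d sham 1 (0.0748) or 3 d sham 3 (0.0699), and the Klf13 call (0.0199) without 3 d sham 4 (0.105). Klf10, at 0.40 (adjusted p = 0.056), passed without 1 h sham 1 (0.0273), 1 h sham 2 (0.0209), 3 d sham 2 (0.0275) or 6 h sham 2 (0.0191), and without the libraries rich in B cell genes (0.0413). The 6 d shams stood above the mean of the earlier shams for Klf3 (0.60, adjusted p = 0.000376), Klf6 (0.31, 0.0115) and Klf4 (0.26, 0.00999), 3 of 8 against 25.8% of all genes. The Klf6 call was lost without the libraries rich in B cell genes (0.156). Without 1 h sham 5 Klf5 (0.0434) and Klf9 (0.0173) passed as well.

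Clock genes moved in the shams alongside Klf9. Of 10 listed clock genes 5 were higher and 2 lower at 6 h than at 1 h, against 28.1% of all genes called. Per3, at 1.15, and Per1, at 1.14, are repressors of the clock loop. Per2 stood at 0.81 and Tef, a clock output factor, at 0.78. The list's median was 0.80, beside 0.01 over all tested genes. In biopsies against shams 6 of 10 were lower and none higher at 1 h (median -0.69), against 45% of all genes called lower. The falls were led by Dbp (-2.10), Ciart (-1.47), Per3 (-1.45) and Tef (-1.24). None was higher at the later times, with 6 of 10 lower at 6 h (median -0.58), against 43.2% of all genes. At 3 d 4 were lower (median -0.42), against 10.5% of all genes. At 6 d 8 were lower, against 10.2% of all genes (median -0.81, beside 0.11 over all genes). Glucocorticoid-induced genes, a list that shares Per1 with the clock genes, did not move one way with Klf9. Among 8 of them 4 were lower and none higher at 1 h, when 45% of all genes were called lower, with Tsc22d3, an anti-inflammatory leucine zipper protein, at -0.76. At 6 h, when the Klf9 change was -0.67, 2 were higher and 1 lower (median 0.23, beside -0.12 over all genes), with Mt2, a metallothionein, at 2.48. At 3 d 3 were lower and 1 higher (median -0.25). At 6 d 5 were lower and 1 higher, with Fkbp5, a chaperone of the receptor, at -0.94 (list median -0.49). Between the 6 h and 1 h shams, where Klf9 rose, 3 were higher and 2 lower (median -0.10). The labels used here do not state the hour of day of collection, and the part of either programme in the Klf9 values was not tested.

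The second cohort repeated the 6 h comparison in each arm. In the abx-titled arm Klf6 and Klf10 rose (2 of 8, against 26.5% of all genes) and Klf4, Klf9 and Klf13 fell (3 of 8, against 43.9%). In the veh-titled arm Klf2, Klf6 and Klf10 rose (3 of 8, against 25.7%) and Klf4, Klf9 and Klf13 fell (3 of 8, against 49%). The share of called genes that were higher was 37.65% in the abx-titled arm and 34.36% in the veh-titled arm. It became 50.97% and 54.06% after median of ratios scaling, which by its method moves the split towards even. After quantile normalization the shares were 44.23% and 44.44%, and after rescaling without small RNA symbols 33.33% and 30.61%.

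**Figure D4:**
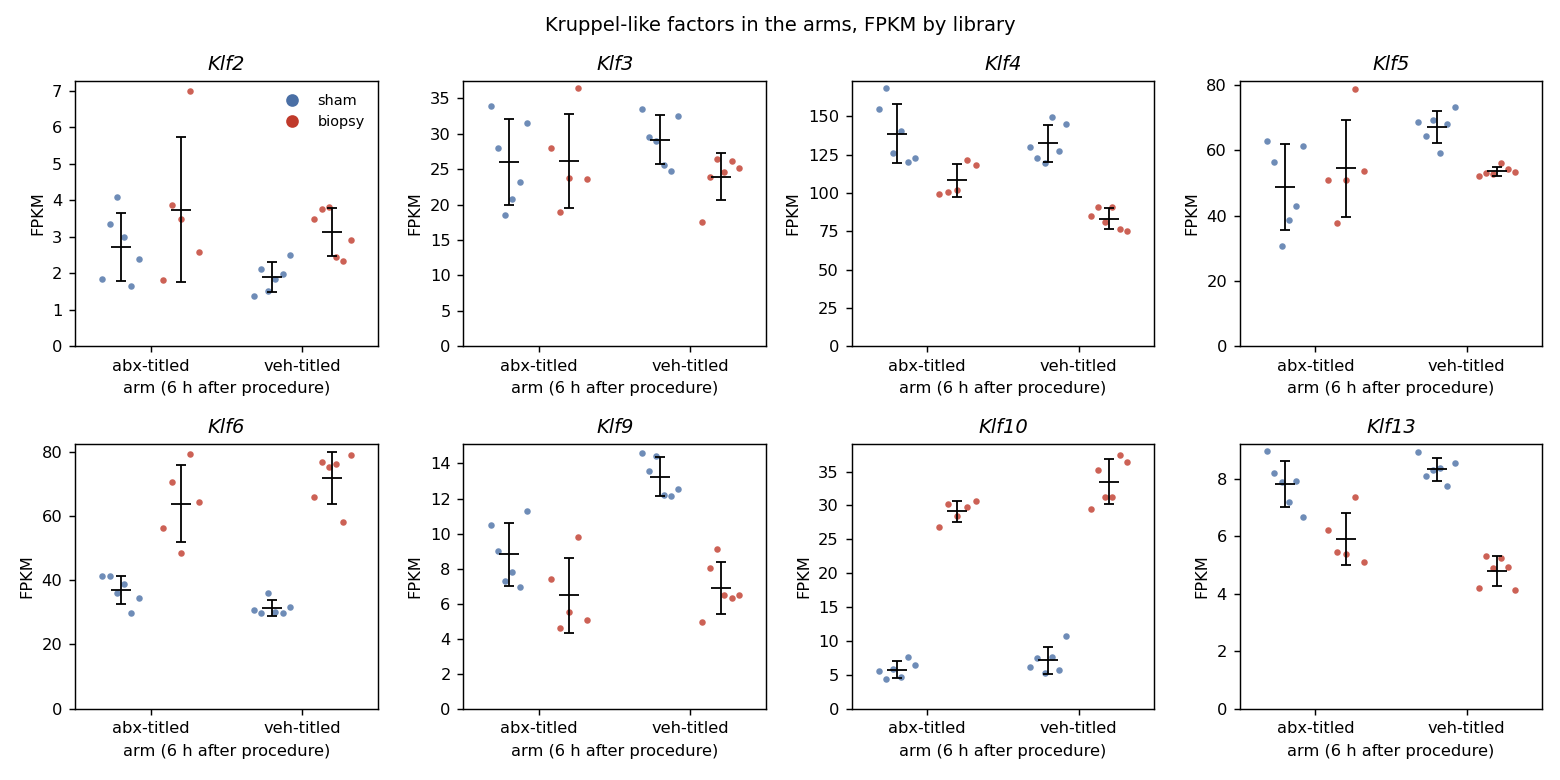
FPKM of each member in each library of the abx-titled and veh-titled arms (blue dots, shams; red dots, biopsies; black marks, mean with SD; linear axes from 0). Klf10 biopsies lie between 26.8 and 37.5 FPKM in both arms, above all 12 shams.

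Klf10 changed more than any other member in both arms. In the abx-titled arm the biopsies measured 26.8, 28.4, 29.8, 30.2 and 30.6 FPKM and the shams spanned 4.36 to 7.71 FPKM (median 5.75, n = 6), a change of 2.17 ± 0.13 (SE, adjusted p = 4.37e-12). In the veh-titled arm biopsies spanned 29.4 to 37.5 FPKM (median 33.3, n = 6) and shams 5.25 to 10.8 FPKM (median 6.78, n = 6), a change of 2.11 ± 0.12 (SE, adjusted p = 2.09e-12). The groups lay far apart in each arm. The 6 h change of Klf10 in the time course was 1.46, but the cohorts are on different scales and this difference was not tested.

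Klf6 was next. Its abx-titled biopsies measured 48.6, 56.1, 64.2, 70.7 and 79.2 FPKM and its shams spanned 29.9 to 41.4 FPKM (median 37.5, n = 6), a change of 0.76 ± 0.11 (SE, adjusted p = 1.7e-06). Its veh-titled biopsies spanned 58.3 to 78.9 FPKM (median 75.6, n = 6) against 29.7 to 36.0 FPKM (median 30.4, n = 6), a change of 1.17 ± 0.10 (SE, adjusted p = 9.21e-10). No library overlapped in either arm. Klf2 passed in the veh-titled arm (0.51 ± 0.19 SE, adjusted p = 0.0208), where biopsies at 2.33 to 3.81 FPKM met shams at 1.37 to 2.50 FPKM. In the abx-titled arm its change was 0.30 (adjusted p = 0.194), and it passed without abx-titled biopsy 2 (0.0409).

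Klf4, Klf13 and Klf9 fell in both arms. Klf4 biopsies spanned 75.2 to 91.2 FPKM and shams 119 to 150 FPKM in the veh-titled arm, a change of -0.66 ± 0.08 (SE, adjusted p = 3.31e-07). In the abx-titled arm they measured 99.2, 101, 102, 118 and 122 FPKM against 120 to 168 FPKM. That change of -0.35 ± 0.09 (SE, adjusted p = 0.00139) was not called after median of ratios scaling (0.063).

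Klf13, which no time of the time course called, fell in the veh-titled arm from 8.35 ± 0.402 FPKM in shams to 4.80 ± 0.515 FPKM in biopsies (SD, n = 6 each), without overlap (change -0.69 ± 0.07 SE, adjusted p = 2.37e-08). In the abx-titled arm it fell from 7.82 ± 0.803 FPKM (SD, n = 6) to 5.91 ± 0.918 FPKM (SD, n = 5), a change of -0.36 ± 0.08 (SE, adjusted p = 0.000351). Klf9 fell by 0.87 on the log2 scale in the veh-titled arm (adjusted p = 1.31e-05), from shams at 12.2 to 14.6 FPKM to biopsies at 4.96 to 9.13 FPKM. Its abx-titled change of -0.41 (adjusted p = 0.0192) was lost without biopsy 3 (0.0714), biopsy 6 (0.0602) or sham 6 (0.052), and after median of ratios scaling (0.0741).

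Klf5 was not called in either arm, although its veh-titled groups did not overlap. There biopsies spanned 52.1 to 56.1 FPKM and shams 59.2 to 73.2 FPKM, a change of -0.32 ± 0.15 (SE, adjusted p = 0.0606). The abx-titled Klf5 values were scattered, with biopsies at 37.9, 50.8, 51.0, 53.8 and 78.9 FPKM and shams from 30.8 to 62.9 FPKM (change 0.16, adjusted p = 0.368). The spread of both arms enters this test. It passed with the veh-titled libraries alone (adjusted p = 2.39e-05), with array weights (0.00311), after quantile normalization (0.0224) and without the abx-titled libraries rich in B cell genes (0.00537). Klf3 changed by 0.01 in the abx-titled arm (95% interval -0.31 to 0.33) and by -0.28 in the veh-titled arm (adjusted p = 0.0919), which passed with array weights (0.00914), with the veh-titled libraries alone (0.0199) and without the abx-titled libraries rich in B cell genes (0.0375).

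The arms' effects were compared directly. Limma called 0 of 8 members, against 3.31% of all genes, and 5 of 8 had an unadjusted p under 0.05, against 20.8% of all genes. These 5 were Klf13 (abx-titled minus veh-titled 0.34, adjusted p = 0.0827), Klf6 (-0.41, 0.115), Klf4 (0.31, 0.151), Klf5 (0.48, 0.214) and Klf9 (0.45, 0.224). Klf13 passed without abx-titled sham 1 (0.0465), and Klf6 passed with array weights (0.0126). For Klf10 the difference was 0.06, with a 95% interval from -0.31 to 0.44.

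Between the shams of the arms 2 of 8 members were called, against 12.6% of all genes. Klf9 was lower in abx-titled shams, at 8.81 ± 1.78 FPKM, than in veh-titled shams, at 13.3 ± 1.11 FPKM (SD, n = 6 each), without overlap (change -0.55 ± 0.15 SE, adjusted p = 0.014), and without abx-titled shams 2 and 5 together its adjusted p was 0.0507. Klf5 was lower at 48.8 ± 13.3 against 67.2 ± 4.79 FPKM (change -0.49, adjusted p = 0.033). That call was lost on leaving out abx-titled sham 3, 4 or 5 or veh-titled sham 1, 2, 3, 5 or 6 (adjusted p 0.053 to 0.0783), and after median of ratios scaling (0.0576). Fibroblast markers were lower in abx-titled shams in 6 of 6 (median -0.76, beside -0.03 over all genes), with sums of 100.2 to 174.2 FPKM against 232.6 to 279.5 FPKM in veh-titled shams. Clock genes differed between the same shams, 6 of 10 lower and 1 higher in the abx-titled shams, against 12.6% of all genes called. Dbp stood at -1.23, Nr1d1 at -1.09, Ciart at -0.85 and Per3 at -0.48. The part of either in the Klf9 and Klf5 values was not tested.

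Other genes of the pathway gave context. Among the 9 other Kruppel-like factors 4 could be tested in the time course. Klf15, a factor of fasting and glucocorticoid responses, was lower at 1 h (-0.98), 6 h (-0.74), 3 d (-0.64) and 6 d (-0.56), and Klf16 was higher at the same times (0.74, 0.26, 0.30 and 0.50), while Klf7 and Klf11 were not called. Klf15 averaged 1.44 ± 0.571 FPKM (SD, n = 4) in 1 h shams and 0.219 ± 0.118 FPKM (SD, n = 6) in 1 h biopsies. Of the related Sp factors 3 of 9 could be tested, and Sp3 was lower at 1 h (-0.45), 6 h (-0.39) and 3 d (-0.21). Among 7 corepressors of the family Sin3a was lower at 1 h (-0.89) and Ctbp1 at -0.18, and the other 5 were not called (list median -0.08, beside -0.18 over all genes). At 6 h 4 were higher and 2 lower, against 24.3% and 43.2% of all genes, with Ctbp2 at 0.40 and Sin3b at 0.39 (median 0.20, beside -0.12). At 3 d 5 were higher, against 32.1% of all genes, with Hdac1 at 0.32 and Hdac2 at 0.31 (median 0.21, beside 0.09).

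Of 10 genes known as direct targets of members 9 could be tested, and Krt4 could not. At 1 h 2 were higher, Cdkn1a, a cell cycle inhibitor under Klf4 (1.26), and Nos3, the endothelial nitric oxide synthase under Klf2 (0.49), and Ccnd1, cyclin D1 under Klf5, was lower (-0.42). Of all genes 9.38% were called higher and 45% lower at 1 h. At 6 h all 9 were higher, against 24.3% of all genes, with a median of 1.10, beside -0.12 over all tested genes. They included Ccl5 (2.76), the chemokine under Klf13, Alpi (2.31), the brush border phosphatase under Klf4, and Thbd (1.58), endothelial thrombomodulin. Alpi was higher while Klf4 was lower at 6 h, and Ccl5 was higher while Klf13 stood at -0.19. At 3 d 5 were higher, against 32.1% of all genes, with Ccnd1 at 1.01 and Alpi at 0.82. At 6 d 5 were higher and 2 lower, against 34.1% and 10.2% of all genes, with S1pr1, a Klf2 target in lymphocytes and vessels, at 0.86. All 9 were higher in both arms, with medians of 1.14 and 1.24. Of all genes 26.5% were called higher in the abx-titled arm and 25.7% in the veh-titled arm. Neutrophil markers rose at 6 h as given above. Which cells or factors held these genes was not tested.

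The 3 genes whose 4 biopsy changes lay closest to those of Klf6, among 9102 candidates, were Lmna, a nuclear lamin (root mean square difference 0.092 on the log2 scale), Zswim4 (0.142) and Btg2, an antiproliferative early gene (0.175). Lmna changed by 1.82, 0.96, 0.36 and 0.17 from 1 h to 6 d. Closest to Klf10 were Vmp1, a membrane protein of autophagy (0.074), the transcription factor Myc (0.077) and Rap2b, a small GTPase (0.081). Myc changed by 1.52, 1.46, 0.61 and 0.60. Likeness was measured over 4 changes, each relative to its own shams.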

How the data were processed

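Poly(A) RNA of mouse colon was made into libraries with a TotalScript kit, per the labels' protocols. The submitters' processing notes name STAR, Cufflinks and the mm10 build, without versions. The deposited values are FPKM per gene symbol and library, per the labels. Files were joined by symbol.

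Values were taken as log2(FPKM + 1), and a gene was tested where 4 or more libraries of a cohort reached 1 FPKM. limma 3.58.1 (R 4.3.3) fitted 1 mean per group with moderated variances that followed a trend on mean level, on 41 libraries with 33 residual degrees of freedom and on 23 libraries with 19. Benjamini-Hochberg adjustment ran over every gene tested in a comparison. The fits were tested on simulated data. Tables and figures were made in Python 3.11.15 with pandas 2.3.3, numpy 2.4.6, matplotlib 3.10.9 and scipy 1.17.1.

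Groups came from the condition labels in the time course and from titles in the arms. The members and the gene lists were chosen with earlier results of these data known. All 8 members are given in each comparison, with at most 4 called genes per list, taken by the largest change, and, for members with a called change of at least 1, the 3 genes closest in their 4 changes among genes with at least 5 FPKM in a group. The values of 1 listed gene are not reported here. Counting precision per gene is unknown. Alternatives were median of ratios scaling, quantile normalization, rescaling without small RNA symbols, array weights, fitting only the groups compared, a replicate block, leaving out each library, libraries rich in B cell genes (over 3 times the cohort's median), or abx-titled shams 2 and 5, raising the filter to 5 FPKM or dropping it, and adding 0.1 instead of 1 before the logarithm.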

Additional observations from a re-analysis of the deposited data

Results flagged for a closer look

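In 5 of the 96 combinations of member and group of 4 to 10 libraries, 1 library stood apart from the others of its group, about the 1 in 20 that chance gives. These were Klf4 in 6 d biopsy 5 (170.7 FPKM, low), Klf9 in 1 h biopsy 5 (10.38 FPKM, high), Klf13 in 6 d biopsy 3 (18.34 FPKM, high), Klf3 in veh-titled biopsy 1 (17.53 FPKM, low) and Klf6 in veh-titled sham 3 (36.04 FPKM, high). The 6 d biopsy 3 and 1 h biopsy 5 are also among the libraries rich in B cell genes.

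The biopsy effect differed between neighbouring times for 5 members by a test of the difference itself. The same test called 46.9% of all genes from 1 h to 6 h and 52.2% from 6 h to 3 d. From 1 h to 6 h it moved by -0.92 for Klf6, -0.38 for Klf9 and -0.40 for Klf13. From 6 h to 3 d it moved by 0.715 for Klf5, -0.76 for Klf6 and -0.73 for Klf10. Single libraries that end the Klf9, Klf10 and Klf13 calls are named in the report.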

How the results depend on the processing

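No called change of a member reversed its direction under the alternatives run. Among the members, 1 was called for the 6 h minus 1 h difference without libraries rich in B cell genes, and 5 were called for 3 d minus 6 h after median of ratios scaling. That scaling called 5535 of all 13285 tested genes for 3 d minus 6 h. For the 6 h against 1 h shams 5 were called after rescaling without small RNA symbols and with only the groups compared. The rescaling called 4534 of all tested genes between these shams. The abx-titled arm had 3 after median of ratios scaling, the difference between arms 1 with array weights, and the arms' shams 1 after median of ratios scaling, after rescaling without small RNA symbols, with only the groups compared and without abx-titled shams 2 and 5. Of all 11849 genes, median of ratios scaling called 8121 in the abx-titled arm and 1307 between the arms' shams. Rescaling without small RNA symbols called 1317 between those shams.

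Over all tested genes, 244 were called for 6 d minus 3 d, against 1006 with array weights, and 392 for the difference between arms, against 1245 with array weights and 213 under the filter of at least 5 FPKM. That filter tested 7316 genes of the arms instead of 11849. It gave 5346 calls in the abx-titled arm, against 8350, and 5605 in the veh-titled arm, against 8848. Without libraries rich in B cell genes 1673 genes were called in the 6 d shams, against 3428 with them. Where the cause is not the smaller number of genes or libraries, the cause was not tested.

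Leaving out 1 library gave 1 to 3 members for 6 h minus 1 h, 3 to 5 for the 6 d shams, 0 to 1 for the difference between arms and 1 to 2 for the arms' shams. It gave 145 (without 6 d biopsy 2) to 521 (without 3 d sham 1) genes for 6 d minus 3 d and 227 (without veh-titled biopsy 1) to 686 (without veh-titled biopsy 3) for the difference between arms. Over all tested genes it gave 5627 to 6331 for 6 h minus 1 h, 2718 to 3996 for the 6 d shams and 1067 to 1774 for the arms' shams.

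Whether replicate numbers pair the libraries is not settled, since 4 to 6 same-numbered pairs per comparison are too few to decide it. Deviations of same-numbered libraries correlated at medians of 0.017, 0.102, 0.068 and -0.072 at 1 h, 6 h, 3 d and 6 d. Differently numbered libraries gave -0.012, 0.008, -0.01 and 0.019. In the abx-titled and veh-titled arms the medians were -0.012 and -0.04, against -0.012 and 0.018. The lowest same-numbered values were -0.111, -0.145, -0.197 and -0.182 from 1 h to 6 d and -0.085 and -0.282 in the arms. With the replicate block 131 genes were called for 6 d minus 3 d and 167 for the difference between arms. Among the members the block left Klf5 at 1 h (adjusted p = 0.0574), Klf4 at 6 h (0.0517), Klf9 in the abx-titled arm (0.0641), Klf2 in the veh-titled arm (0.0513) and Klf13 for 6 h minus 1 h (0.281) above the threshold, and brought Klf5 in the veh-titled arm (0.0225) and Klf2 for 3 d minus 6 h (0.0255) below it.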
